A study of Mus musculus with 5 samples.

Results

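The genes described here are the 73 protein-coding neighbors of Gpnmb on mouse chromosome 6, a set chosen by position alone. They are the protein-coding genes other than Gpnmb whose annotated start lies between positions 44000000 and 54000000 of the GRCm39 assembly, and all 73 were among the 56941 gene identifiers of the count table. Gpnmb itself spans chr6:49013426-49047863 on the forward strand, with 37 of its neighbors starting before it and 36 after it.

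RNA was sequenced from dissected iridocorneal angle rings, the tissue between iris and cornea that holds the trabecular meshwork, with remnants of iris and ciliary body. The labels give an age of 12 months, and the study's methods list both sexes for each genotype. The study's reported RNA level of the Y-linked gene Ddx3y, however, was high in DBA/2J and almost absent in Gpnmb+ mice. Sex and genotype therefore cannot be fully told apart in these pools, and the part of sex in the differences was not tested. There were 3 DBA/2J pools and 2 Gpnmb+ pools, each combining the angles of several mice. DBA/2J is an inbred strain that carries the nonsense allele Gpnmb R150X and the b allele of Tyrp1, and that develops pigment dispersion and glaucoma. Gpnmb+ mice (DBA/2J-Gpnmb+/SjJ) have the wild-type Gpnmb allele on the DBA/2J background and keep the Tyrp1 b allele, so both genotypes share the latter. The design text gives 3 mice for each pool, whereas the library names of the Gpnmb+ pools list 2 animals each. The extent of chromosome 6 that differs between the strains in addition to Gpnmb was not given in the sources used here.

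Strains that differ at a single gene after breeding are often not identical around that gene. When a wild-type allele comes from another strain, a stretch of the flanking chromosome comes with it until recombination breaks it, and variants in that stretch can alter the expression of the genes that carry them. Such linked differences are called passenger differences, and they are sought among the nearest genes first. The study calls its Gpnmb+ controls congenic, but names no donor strain for the allele and no flanking stretch. The neighbors of Gpnmb include a cluster of zinc finger genes, the GIMAP GTPases of lymphocytes, the HoxA developmental cluster, a pair of neuropeptide genes and several genes of chromatin and RNA processing. The comparison asked whether any of them differed between DBA/2J and Gpnmb+ mice, and whether differences grew toward Gpnmb.

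The site of the allele that distinguishes the strains is shown first, because every distance below is measured from the gene that holds it. In the GRCm39 reference, codon 150 of Gpnmb lies at chr6:49022319-49022321 in exon 4 of 11 of the canonical transcript. The forward-strand bases from 49022295 to 49022345 are given with this codon in capitals.

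Gpnmb codon 150: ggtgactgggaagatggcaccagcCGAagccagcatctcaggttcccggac

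The reference codon encodes arginine, and C448T, counted from the first base of the coding sequence, turns it into a stop after 149 of the 574 residues (26.0%). The recognition sequence of the restriction enzyme PvuII, CAGCTG, does not occur in the 51 reference bases and occurs once when that substitution is made. The count table holds no reads, so alleles were not called in these pools.

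Gpnmb was far lower in DBA/2J than in Gpnmb+ mice. Its counts were 2042, 2234 and 1946 for DBA/2J and 129659 and 110568 for Gpnmb+. In CPM (counts relative to the TMM-adjusted library size), this was 47.2 ± 4.35 (SD, n = 3) against 2408 ± 209 (SD, n = 2). The log2 fold difference, DBA/2J over Gpnmb+, was -5.67 with a standard error (SE) of 0.14 and an adjusted p of 0.000231 (edgeR quasi-likelihood test, Benjamini-Hochberg over 19713 genes). The labels therefore matched the targeted gene in all 5 pools. Per kb of exon, Gpnmb ranked first among itself and its 73 neighbors in Gpnmb+ mice, at 363 CPM per kb, and 14th in DBA/2J mice, at 7.12 CPM per kb.

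None of the neighbors was called different between the genotypes. Of the 73 genes, 51 reached the count minimum of 10 in at least 1 pool and were tested, and 0 of the 51 passed an adjusted p of 0.05 with a fold of at least 1.5, where 0.796% of all tested genes did. The smallest adjusted p among them was 0.086, for Jazf1. At an unadjusted p of 0.05 with the same fold, 6 of the 51 passed (Gimap7, Aoc1, Npy, Gsdme, Npvf and Jazf1), against 8.67% of all tested genes. At an unadjusted p of 0.05 of any fold, 10 passed, against 15.9% of all tested genes. DESeq2's Wald test called 2 of the 51, Aoc1 and Jazf1, where it called 4.7% of all tested genes, and with ashr moderation Jazf1 alone, where it called 3.72%; limma-voom called 0. The median log2 fold difference of the 51 was -0.04, with 21 higher and 30 lower in DBA/2J mice; over all tested genes the median was -0.02, with 47.4% higher.

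The estimates were narrow enough to bound many of these differences. The 95% interval lay entirely within 1.5-fold in either direction for 27 of the 51 genes (52.9%). This compares to 42.6% of all tested genes and 51.7% of tested protein-coding genes without Gpnmb. It lay within 2-fold for 41 of the 51 (80.4%), against 63.8% and 73.5% of these sets. The median SE was 0.15 on the log2 scale. For 1 gene alone, an exact two-sided rank test of 3 pools against 2 cannot give a p below 0.2. Each gene therefore rests on the fit across all genes, and a p above the threshold does not show that a level was equal.

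**Figure D1:**
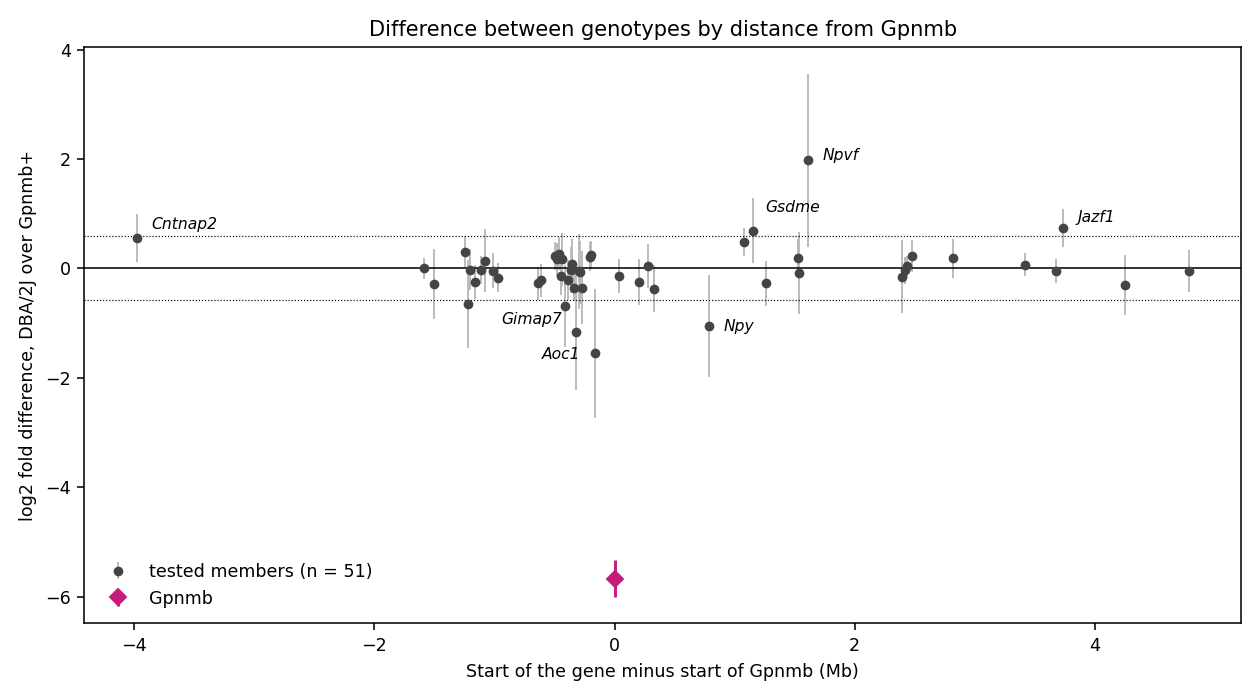
Log2 fold difference, DBA/2J over Gpnmb+ (vertical axis), against the start of each gene minus the start of Gpnmb in Mb (horizontal axis), for the 51 tested neighbors (circles) and Gpnmb (diamond). Bars are 95% intervals and dotted lines mark 1.5-fold; Gpnmb lies at -5.67, while the neighbors lie between -1.55 and 1.98, most of them near 0 at every distance.

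The 5 tested genes nearest to Gpnmb on each side were compared with it next, with the promoters of Gpnmb and the closest tested gene on either side. The closest gene, Malsu1, encodes a factor for assembly of the mitochondrial ribosome and starts 2.87 kb past the end of Gpnmb. The closest tested gene before Gpnmb is Aoc1, which encodes diamine oxidase, an enzyme that degrades histamine and putrescine, and ends 127 kb before Gpnmb starts. The 200 bases before the start of each canonical transcript (GRCm39, gene strand) are shown with every CpG dinucleotide in capitals, together with Jazf1, whose p was the smallest of the 51; CpG-poor and CpG-rich promoters both occur among them. The windows are chr6:48871988-48872187 (forward) for Aoc1, chr6:49013226-49013425 (forward) for Gpnmb, chr6:49050529-49050728 (forward) for Malsu1 and chr6:53045617-53045816 (reverse) for Jazf1.

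Aoc1 promoter: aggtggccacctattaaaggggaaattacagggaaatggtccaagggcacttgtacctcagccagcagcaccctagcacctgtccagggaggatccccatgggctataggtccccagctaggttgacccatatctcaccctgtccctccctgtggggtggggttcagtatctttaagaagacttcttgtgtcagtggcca
Gpnmb promoter: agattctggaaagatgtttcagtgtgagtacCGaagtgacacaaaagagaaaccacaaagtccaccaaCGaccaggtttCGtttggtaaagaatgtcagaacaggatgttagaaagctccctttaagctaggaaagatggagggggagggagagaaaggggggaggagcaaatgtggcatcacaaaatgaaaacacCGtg
Malsu1 promoter: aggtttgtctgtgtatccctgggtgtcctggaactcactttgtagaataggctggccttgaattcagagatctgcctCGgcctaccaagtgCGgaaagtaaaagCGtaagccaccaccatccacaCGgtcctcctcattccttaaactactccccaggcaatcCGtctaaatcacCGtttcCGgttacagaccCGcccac
Jazf1 promoter: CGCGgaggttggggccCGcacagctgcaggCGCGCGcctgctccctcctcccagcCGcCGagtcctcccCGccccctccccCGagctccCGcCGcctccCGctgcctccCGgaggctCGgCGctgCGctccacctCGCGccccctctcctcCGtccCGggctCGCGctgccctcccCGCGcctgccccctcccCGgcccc

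Aoc1 had 0 CpG in this window, Gpnmb 4, Malsu1 8 and Jazf1 26. The median was 10 over the promoters of the 51 tested neighbors and 12.5 over those of the 22 neighbors below the count minimum. It was 6 over 1111 protein-coding genes of chromosome 6, which were not selected by their counts. The E-box letters CACGTG and CATGTG (each its own search, both strands; the first is its own reverse complement) were in none of the windows shown. In the 1111 windows of the same length, 3.51% held the first and 9.18% the second.

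Malsu1 hardly differed between the genotypes. It had 427, 365 and 382 counts across DBA/2J pools 1 to 3, against 505 and 475 for Gpnmb+, 8.89 ± 0.619 CPM (SD, n = 3) against 9.83 ± 0.171 CPM (SD, n = 2). The pools of the genotypes did not overlap, but the log2 fold difference was only -0.15 (SE 0.13, adjusted p = 0.635, edgeR), with a 95% interval from -0.46 to 0.17. Igf2bp3, whose gene lies opposite to Malsu1 and overlaps it by 15045 bases, was not tested and had 4, 4 and 8 counts for DBA/2J and 0 and 3 for Gpnmb+.

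Aoc1 had the second largest difference of the 51 genes. Its counts were 33, 100 and 43 across DBA/2J pools 1 to 3, against 205 and 189 for Gpnmb+, so every Gpnmb+ pool was above every DBA/2J pool. The difference was -1.55 (SE 0.48) on the log2 scale, and it did not pass the adjustment (adjusted p = 0.207, edgeR); with DESeq2's Wald test the adjusted p was 0.0476. DBA/2J pool 2 was the highest of its group, and without it the difference was -2.21. The paralogs Aoc1l1, Aoc1l2 and Aoc1l3, which lie between Aoc1 and Gpnmb, had at most 1 count in any pool, and reads from any stretch identical between paralogs are not counted where only unique alignments are kept.

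Between Aoc1 and the GIMAP cluster lie Tmem176b and Tmem176a, membrane proteins abundant in myeloid and dendritic cells. Tmem176a had 325, 328 and 280 CPM for DBA/2J and 267 and 259 for Gpnmb+, and its log2 fold difference was 0.24 (SE 0.10, adjusted p = 0.334, edgeR). Tmem176b, which overlaps it by 1421 bases on the opposite strand, was at 0.21 (adjusted p = 0.409). In both genes the DBA/2J pools were all above the Gpnmb+ pools, for Tmem176a by a margin smaller than the range of the DBA/2J pools. For Tmem176b the lowest DBA/2J pool (321.4 CPM) and the higher Gpnmb+ pool (321.1 CPM) were nearly level, and leaving out Gpnmb+ pool 2 gave a difference of 0.10, leaving out Gpnmb+ pool 1 one of 0.34. The summed CPM of 6 macrophage markers ranged from 675 to 922 in the DBA/2J pools and from 640 to 761 in the Gpnmb+ pools, and its part in these values was not tested. In bulk tissue, fewer cells of a type and less RNA per cell cannot be told apart.

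After Malsu1, the next tested genes were Tra2a, a splicing regulator, at -0.25 (adjusted p = 0.536), Ccdc126 at 0.04 (adjusted p = 0.929) and Fam221a at -0.37 (adjusted p = 0.379; edgeR for each). For Tra2a, the value was -0.03 when Gpnmb+ pool 2 was left out, -0.43 when Gpnmb+ pool 1 was, and -0.13 when DBA/2J pool 2 was. The pools of the genotypes overlapped for Tra2a and Ccdc126 and did not for Fam221a, which had 165, 150 and 198 counts across DBA/2J pools 1 to 3, against 258 and 242 for Gpnmb+. The fifth tested gene on this side, Npy, encodes neuropeptide Y, a transmitter of sympathetic nerves. It had 330, 428 and 540 counts for DBA/2J and 610 and 1406 for Gpnmb+. In CPM, Gpnmb+ pool 1, at 12.0, fell just below DBA/2J pool 3, at 12.1, so the groups overlapped. The log2 fold difference was -1.05 (SE 0.38, adjusted p = 0.268, edgeR), and it was -0.29 without Gpnmb+ pool 2.

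**Figure D2:**
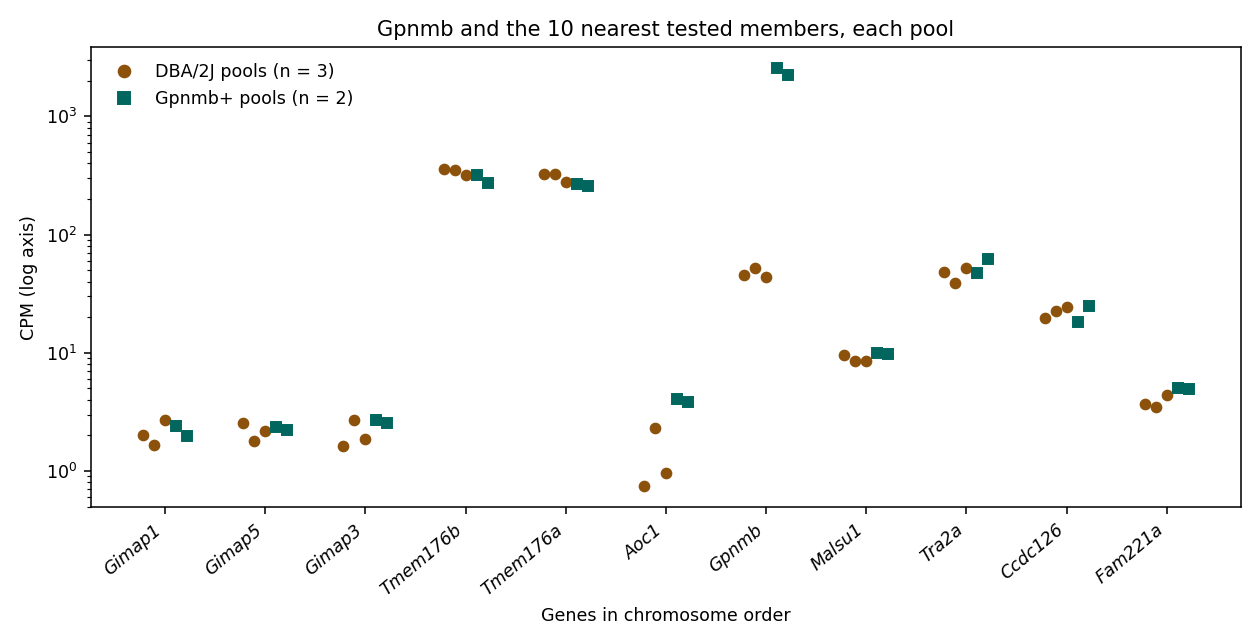
CPM on a log axis (vertical) for Gpnmb and the 10 tested neighbors whose gene bodies lie nearest to it, in chromosome order (horizontal), with 1 point for each DBA/2J pool (circles) and each Gpnmb+ pool (squares). The genotypes stand far apart at Gpnmb, less so at Aoc1, and lie close together at the other genes.

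Differences were of similar size at all distances, with medians slightly higher nearer to Gpnmb. The median size of the log2 fold difference, whatever its direction, was 0.218 for the 25 tested genes within 1 Mb, 0.198 for the 19 genes from 1 to 2.5 Mb and 0.185 for the 7 genes beyond 2.5 Mb. The pools did not overlap between the genotypes for 13 of the 25 (52.0%), 6 of the 19 (31.6%) and 2 of the 7 genes (28.6%), which makes 21 of 51 (41.2%) against 34.5% of all tested genes. Between the quartiles, sizes ran from 0.145 to 0.35 within 1 Mb and from 0.039 to 0.297 between 1 and 2.5 Mb. Across the 51 genes, size and distance had a Spearman correlation of -0.102 and a Pearson correlation of -0.07. This is a description without a test, since all genes share the same 5 libraries; size also had a Spearman correlation of -0.187 with the mean log2 CPM. Without the 19 genes from 1 to 2.5 Mb the Spearman correlation was -0.033, without the 7 most distant genes -0.132 and without the 25 nearest genes 0.038. By side, it was -0.131 over 30 genes before Gpnmb and -0.218 over 21 genes after it.

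The genes within 1 Mb leaned to one direction, with 8 higher and 17 lower in DBA/2J mice and a median log2 fold difference of -0.15, compared to 9 higher and 10 lower from 1 to 2.5 Mb. Most of the lower genes belonged to the zinc finger and GIMAP clusters described below. Of the 25, 14 had a 95% interval within 1.5-fold (56.0%, against 51.7% of tested protein-coding genes without Gpnmb).

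The size of the differences was also compared to that in the rest of the genome. The median over the 51 neighbors was 0.211, against 0.199 over all 19713 tested genes, 0.176 over tested protein-coding genes without Gpnmb and 0.187 over 754 tested protein-coding genes elsewhere on chromosome 6. Over the 69 genes of the 10 Mb before the window it was 0.18, and over the 40 genes of the 10 Mb after it 0.264, so that the neighbors lay between the flanks. Among genes with at least 1 CPM on average, it was 0.21 for 48 neighbors and 0.159 for protein-coding genes. A difference of at least 1.5-fold, of any p, was found in 8 of the 51 genes (15.7%). The share was 18.4% over all tested genes and 14.8% over tested protein-coding genes without Gpnmb. The nearest gene of chromosome 6 called different was Inmt, an indole methyltransferase gene 6.13 Mb past Gpnmb, at -1.58 (SE 0.22, adjusted p = 0.0456, edgeR), and the nearest one before Gpnmb was Gng11, 45.0 Mb away.

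**Figure D3:**
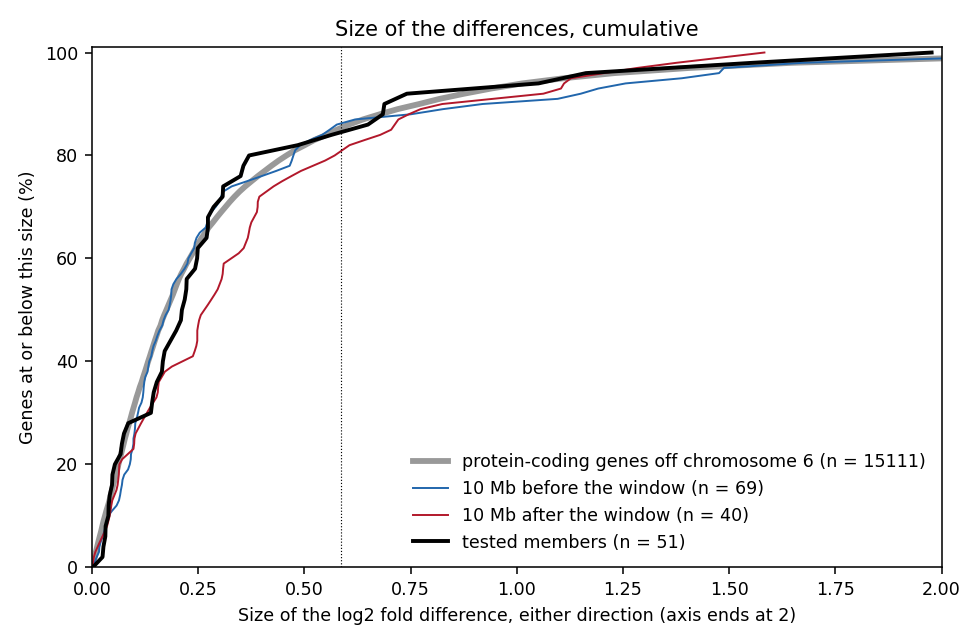
Share of genes in percent (vertical axis) whose log2 fold difference is at or below a given size in either direction (horizontal axis, ending at 2), for the 51 tested neighbors (black), the 69 and 40 tested protein-coding genes of the 10 Mb before and after the window (blue and red) and 15111 protein-coding genes of other chromosomes (grey). The black line runs close to the grey one, and the red line lies to the right of both over much of its course.

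The spread between pools of one genotype was of the same order. For 23 of the 51 genes (45.1%), the gap between the Gpnmb+ pools was wider than that between the genotypes, as was the case for 51.6% of all tested genes. The range of the 3 DBA/2J pools exceeded the difference between the genotypes for 38 of the 51 genes (74.5%), against 67.9% of all tested genes. The median range of the DBA/2J pools was 0.34 and the median difference between the Gpnmb+ pools 0.14 on the log2 CPM scale.

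The zinc finger genes, grouped here with the KRAB-domain gene Krba1, form the largest cluster before Gpnmb. Most encode DNA-binding repressors of the KRAB type or related regulators. All 11 were tested, 2 were higher and 9 lower in DBA/2J mice, 0 were called, and their median log2 fold difference was -0.14. Zfp212, the highest of them per kb of exon at 5.90 CPM per kb, was at -0.03 (adjusted p = 0.927), and Krba1, with the smallest p of the list, at -0.27 (adjusted p = 0.358; edgeR for both). The largest difference was that of Zfp786, a low gene with 26, 36 and 42 counts across DBA/2J pools 1 to 3, against 51 and 72 for Gpnmb+, at -0.65 (SE 0.33, adjusted p = 0.404, edgeR); without Gpnmb+ pool 2 it was -0.35. AI854703, a gene beside this cluster, was similar, with 60, 78 and 113 counts against 170 and 135 and a difference of -0.68 (SE 0.31, adjusted p = 0.351, edgeR). In both genes all DBA/2J pools were below both Gpnmb+ pools.

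The GIMAP genes encode GTPases that support the survival of lymphocytes, and Gimap4 and Gimap6 are the most abundant of them here. All 8 were tested, 1 was higher and 7 lower in DBA/2J mice, 0 were called, and the median was -0.14. Gimap6 had 21.5 ± 1.52 CPM (SD, n = 3) in DBA/2J and 27.4 ± 1.04 CPM (SD, n = 2) in Gpnmb+ mice, with no overlap of the pools and a log2 fold difference of -0.35 (SE 0.10, adjusted p = 0.193, edgeR). Gimap7 had only 7, 10 and 16 counts for DBA/2J and 26 and 30 for Gpnmb+. Its difference was -1.16 (SE 0.43, adjusted p = 0.277, edgeR), the third largest of the 51. Gimap4, the most abundant per kb at 9.68 CPM per kb, was at 0.08, Gimap5 at -0.07 and Gimap3 at -0.36, each with overlapping pools. Gimap3 was at -0.21 without DBA/2J pool 1 and at -0.59 without DBA/2J pool 2. The summed CPM of 9 lymphocyte markers ranged from 14.6 to 19.1 in the DBA/2J pools and from 16.9 to 17.1 in the Gpnmb+ pools, and that of 6 endothelial markers from 352 to 485 and from 381 to 422. The part of these cells in the GIMAP values was not tested.

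Of the 6 genes listed under neuropeptide, receptor and neuronal genes, with Pals2 and Creb5 placed among them, 5 were tested. Of these, 3 were higher and 2 lower in DBA/2J mice, and 0 were called. Their log2 fold differences ran from -1.05 for Npy to 1.98 for Npvf, with a median of 0.48, the value of Pals2. Npvf encodes the precursor of the RFamide-related peptides and starts 1.61 Mb past Gpnmb. It had 2263, 2441 and 2862 counts among DBA/2J pools but only 1249 and 219 among Gpnmb+ pools, or 57.3 ± 6.64 CPM (SD, n = 3) against 14.5 ± 14.2 CPM (SD, n = 2). All DBA/2J pools were above both Gpnmb+ pools, which differed 2.45 from each other on the log2 CPM scale. The difference of 1.98 (SE 0.65) was the largest of the 51 genes, with a wide 95% interval from 0.39 to 3.56 and an adjusted p of 0.234 (edgeR). It rested on how the Gpnmb+ pools were weighed: without Gpnmb+ pool 2 it was 1.22, and without Gpnmb+ pool 1 it was 3.68 and called (adjusted p = 0.0172, edgeR), in a fit that called 1.12% of all tested genes. In DBA/2J mice Npvf was the most abundant of the 73 genes per kb of exon, at 70.6 CPM per kb, and in Gpnmb+ mice it ranked below several of them, at 17.9 CPM per kb.

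The markers of nonpigmented ciliary epithelium, the inner layer of the ciliary body, moved in the same direction as Npvf. Their summed CPM was 286, 321 and 354 across DBA/2J pools 1 to 3, against 147 and 99.7 for Gpnmb+, with the lowest sum in the pool that had the lowest Npvf count. Of the 5 markers measured, 5 were higher in DBA/2J mice, although Opcml by 0.0004 only, and 2 were called (Six6 and Col9a1). The 5 measured trabecular meshwork markers summed to between 951 and 1146 CPM in the DBA/2J pools and to between 1461 and 1492 in the Gpnmb+ pools. The part of tissue composition in the Npvf values was not tested.

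Cntnap2, a neurexin family adhesion gene that lies 3.98 Mb before Gpnmb, had 1308, 1699 and 1896 counts for DBA/2J and 1164 and 1338 for Gpnmb+. Scaled for depth, the DBA/2J pools were all above the Gpnmb+ pools, and the difference was 0.56 (SE 0.18, adjusted p = 0.224, edgeR). Pals2, a scaffold gene of cell junctions, was at 79.5 ± 4.87 CPM (SD, n = 3) against 56.9 ± 6.46 CPM (SD, n = 2), also without overlap, a difference of 0.48 (SE 0.11, adjusted p = 0.111, edgeR). Its interval ran from 0.22 to 0.74, and the estimate was under the 1.5-fold minimum of 0.58 on the log2 scale. DESeq2's Wald test gave an adjusted p of 0.00509 with a difference of 0.49, also under that minimum, and without Gpnmb+ pool 1 the difference was 0.61 (adjusted p = 0.112, edgeR). The summed CPM of 6 Schwann cell markers was lower in DBA/2J pools (296 to 342) than in Gpnmb+ pools (387 to 442), and 2 of the 6 were called lower; their part in the values of the neuronal genes was not tested.

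Gsdme, a pore-forming gasdermin gene, runs opposite to Pals2 and overlaps it by 19682 bases. It had 714, 417 and 689 counts across DBA/2J pools 1 to 3, against 468 and 383 for Gpnmb+, a difference of 0.69 (SE 0.24, adjusted p = 0.261, edgeR). The pools did not overlap in CPM, with DBA/2J pool 2 at 9.71 CPM close above Gpnmb+ pool 1 at 9.22 CPM. Whether counting used strand was not given in the sources used here, so reads in the shared stretch of Pals2 and Gsdme cannot be assigned with certainty. The same holds for the 13 tested neighbors that overlap another tested one on the opposite strand, including Tmem176b with Tmem176a and Hnrnpa2b1 with Cbx3.

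**Figure D4:**
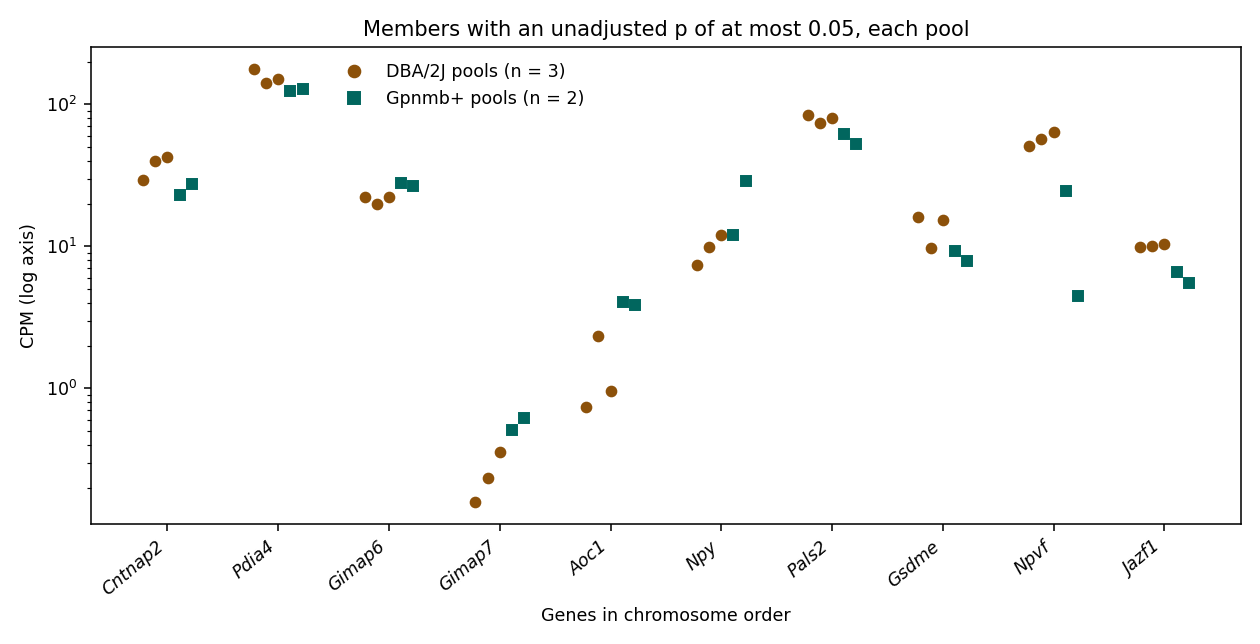
CPM on a log axis (vertical) for the 10 neighbors with an unadjusted p of at most 0.05, in chromosome order (horizontal), with 1 point for each DBA/2J pool (circles) and each Gpnmb+ pool (squares). Npvf shows the widest gap between pools of one genotype, and Jazf1 the tightest DBA/2J pools.

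Of the 8 genes listed under chromatin, RNA binding and protein turnover, with Ccdc126 placed among them, 7 were tested. Of these, 4 were higher and 3 lower in DBA/2J mice, and the median was 0.00. Hnrnpa2b1, an abundant RNA-binding protein gene, had 496 ± 28.8 CPM (SD, n = 3) against 507 ± 33.5 CPM (SD, n = 2) and a difference of -0.03 (adjusted p = 0.911, edgeR). Jazf1, a zinc finger cofactor gene associated with growth and glucose metabolism, had the largest difference of this group. It had 442, 429 and 467 counts for DBA/2J and 334 and 271 for Gpnmb+, 10.1 ± 0.29 CPM (SD, n = 3) against 6.06 ± 0.737 CPM (SD, n = 2). Its difference was 0.74 (SE 0.14), with a 95% interval from 0.40 to 1.09 that excluded 0, an unadjusted p of 0.00187 and an adjusted p of 0.086 (edgeR). DESeq2's Wald test gave an adjusted p of 0.000356. Leaving out each pool in turn moved the difference between 0.62 and 0.87. Jazf1 lies 3.73 Mb past Gpnmb, and Tax1bp1, which overlaps its gene by 96 bases, was at -0.05 (SE 0.09).

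Of the 9 immune and myeloid genes, 8 were tested, with 6 higher and 2 lower, a median of 0.22 and 0 called; Tmem176a and Tmem176b led them in level and Gsdme in p. All 7 mitochondrial, secretory and metabolic genes were tested, with 4 higher and 3 lower and a median of 0.07. In this group Aoc1 is described above, and Pdia4, a disulfide isomerase of the endoplasmic reticulum, had 156 ± 19.0 CPM (SD, n = 3) against 126 ± 1.80 CPM (SD, n = 2), a difference of 0.31 (SE 0.12, adjusted p = 0.284, edgeR). Of the 12 other members, 5 were tested, with 1 higher and 4 lower.

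The 22 neighbors below the count minimum included the whole HoxA cluster. Its 12 genes (11 Hoxa genes and Evx1), which pattern the body axis and limbs, had 18 counts over all pools together and at most 4 in any pool, and 7 of them had 0 counts in every pool. A count of 0 allows up to 3 counts, which was between 0.0591 and 0.0699 CPM in these libraries. Among the other 10 genes, Sspo had 7 to 9 counts in each pool, and Cpvl had 7 counts in Gpnmb+ pool 1 and at most 1 elsewhere. A total of 11 neighbors had 0 counts in every pool. All 22 had fewer than 10 counts in every pool, and differences between the genotypes below that level were not resolved at this depth.

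**Figure D5:**
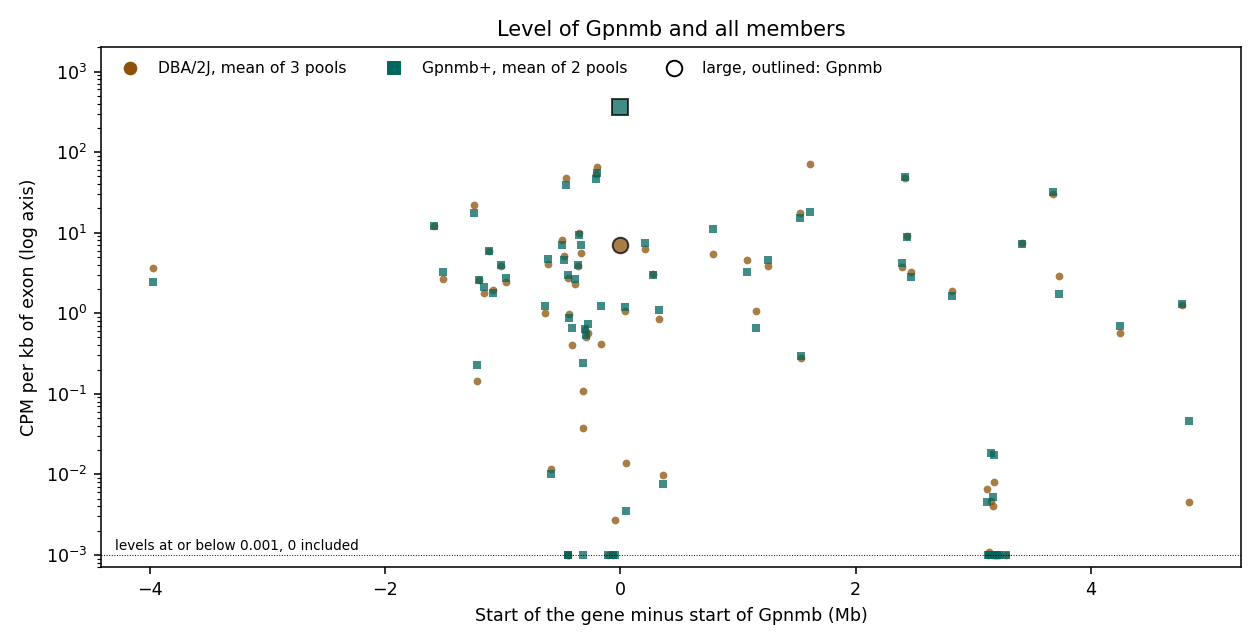
Mean CPM per kb of exon on a log axis (vertical) against the start of each gene minus the start of Gpnmb in Mb (horizontal), for the 73 neighbors and Gpnmb (large, outlined) in DBA/2J (circles) and Gpnmb+ mice (squares). Levels at or below 0.001, 0 included, are drawn on the dotted line; most of the HoxA genes lie there, about 3 Mb past Gpnmb.

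Total counts were 45596089, 43937141 and 43900661 for DBA/2J pools 1 to 3, against 49837758 and 48283935 for Gpnmb+. Both Gpnmb+ pools were thus somewhat deeper than every DBA/2J pool, and the raw counts given above are not scaled for this. Markers of pigment cells were at between 3379 and 4464 CPM in sum in the DBA/2J pools and between 3609 and 4221 in the Gpnmb+ pools, and skeletal muscle markers were highest in DBA/2J pool 3.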

How the data were processed

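Messenger RNA of 5 pools (3 DBA/2J, 2 Gpnmb+) was sequenced as 100 bp paired-end reads. Per the study's methods, trimming was done with fastp and alignment with STAR against GRCm39 (Ensembl release 110), and the authors deposited the number of uniquely aligned reads of each gene as raw counts; whether strand was used was not given in the sources used here. The unit analysed is these deposited counts, and no value column was left unused. Of 56941 identifiers, 56323 were found in GENCODE release M39 (GRCm39), which gave positions and classes.

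Genes reaching 10 counts in 1 pool or more were scaled by TMM and tested with edgeR 4.0.16 (quasi-likelihood test, R 4.3.3) across all 5 pools. A gene was called at a Benjamini-Hochberg adjusted p of at most 0.05 and a fold of at least 1.5. Intervals (95%) used the fitted SE and t distribution; log2 CPM used a prior count of 2. Intervals and floors (3 counts) cover these 5 pools only.

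Alternatives were DESeq2 1.42.0 (Wald test, size factors, and ashr 2.2.63 moderation, added after the data were seen), limma-voom 3.58.1, other count filters, a replicate block and each pool left out. The members and lists were chosen with earlier results of these data known. Genes named in the text were the 10 with the largest difference among those with separated pools, the 5 nearest tested on each side, and, for each role list, the gene with the smallest p and the one most abundant per length; others were named after their values were seen.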

Additional observations from a re-analysis of the deposited data

How the results depend on the processing

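Gpnmb kept its direction and its call under all 12 alternatives. The count of 0 neighbors called became 2 with DESeq2's Wald test (Aoc1 and Jazf1) and 1 with ashr moderation (Jazf1, 3.72% of all tested genes called), and 6 with an unadjusted p and the same fold. Leaving out 1 pool at a time gave 0 to 1 called, the 1 being Npvf without Gpnmb+ pool 1 (1.12% of all tested genes called); with 1 Gpnmb+ pool left, that pool was assumed to vary like the others. Over the same 5 fits, the genes called among all tested ranged from 1 to 217. With 1 DBA/2J pool left out, pools did not overlap for 26 to 29 neighbors, against 45.1% to 46.7% of all tested genes; without Gpnmb+ pool 1 this held for 31 (60.8%, against 65.5%) and without Gpnmb+ pool 2 for 32 (62.7%, against 58.8%). The median size of the difference was 0.062 with ashr moderation, 0.242 with no count minimum and 0.188 to 0.235 with a pool left out. The median signed difference was -0.0088 with ashr moderation, -0.012 with no count minimum and -0.056 to 0.0050 with a pool left out. The Spearman correlation of size with distance was -0.016 with no count minimum and -0.174 to -0.035 with a pool left out. The cause of these shifts was not tested.

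Of 288 values of named neighbors under the alternatives, 274 kept direction and side of the threshold, 4 passed it and 10, all of differences near 0, turned direction. With a pool left out, Zfp212 ranged from -0.069 to 0.0050, Gimap4 from -0.050 to 0.24, Gimap5 from -0.20 to 0.051, Ccdc126 from -0.15 to 0.27 and Hnrnpa2b1 from -0.096 to 0.040. With the replicate block, Gimap4 was at -0.0086 and Ccdc126 at -0.016.

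Deviations of same-numbered pools from their group means had correlations of 0.279 and 0.254 over 19713 genes. With only 2 Gpnmb+ pools, the deviations of these pools mirror each other, so the correlations are not independent. Only 2 pairs exist and the labels name no shared batch, so the pools share only a number. The replicate block left 0 neighbors called, with 220 genes called in all against 157 without it. Depth limits the 22 neighbors below the count minimum, and 2 Gpnmb+ pools limit the rest.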

Other observations

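The window also holds 160 annotated genes that are not protein-coding, of which 16 reached the count minimum and 0 were called. Gm19253, a processed pseudogene that starts 0.701 kb past the end of Gpnmb on the same strand (chr6:49048564-49048870, GRCm39), had 0, 0 and 5 counts across DBA/2J pools 1 to 3, against 35 and 35 for Gpnmb+. Its log2 fold difference was -4.12 (SE 0.96, adjusted p = 0.122, edgeR), with a wide 95% interval from -6.46 to -1.79. Its levels were under 1 CPM in every pool. 5430402O13Rik, a long noncoding RNA gene on the strand opposite to Npvf, had 44, 50 and 53 counts for DBA/2J and 29 and 16 for Gpnmb+, a log2 fold difference of 1.30 (SE 0.35, adjusted p = 0.159, edgeR). Gm7932, a long noncoding RNA gene between Tmem176a and Aoc1, had 333, 327 and 200 counts against 221 and 57, a difference of 1.24 (SE 0.56, adjusted p = 0.355, edgeR). In all 3 genes the DBA/2J pools lay on one side of both Gpnmb+ pools in CPM, as they did for 34.5% of all tested genes. They were named after their values were seen.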
